A study of Mus musculus with 4 samples.

Results

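The values described here are those of 8 genes widely used as markers of alternatively activated macrophages: Retnla, Mrc1, Cd163, Mgl2, Clec10a, Folr2, Lyve1 and Arg1. Their rows were taken by symbol from the gene table of the series, which holds 39170 rows, and each symbol matched 1 row. The set was drawn up around Retnla after its difference between the sorting gates had been seen in these same libraries, so the gate values below describe the genes and support nothing further. RNA came from islet cells of male MIP-GFP C57BL/6 mice, 6 to 8 weeks old, in which green fluorescent protein marks cells that use the insulin promoter. Insulin-positive cells were sorted into a Glut2-high gate (Glut2H) and a Glut2-low gate (Glut2L), Glut2 being the glucose transporter through which the toxin streptozotocin (STZ) enters beta cells. Control mice received vehicle, and the other mice received 200 mg/kg of STZ and had diabetes 4 days later. With 3 mice labelled per group but 1 library for each gate and treatment, no spread between replicates can be had, and the sources do not say whether a library pooled mice. No test was run, and each difference is between 2 libraries.

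Macrophages exposed to interleukin 4 or interleukin 13 signal through the receptor subunit encoded by Il4ra and the transcription factor STAT6, and switch on a set of genes called alternative activation. Retnla, a small secreted protein also called RELMα or FIZZ1, and Arg1, the arginase that takes arginine away from nitric oxide synthesis, are its classic mouse markers. The other members are receptors of tissue macrophages: Mrc1 (the mannose receptor CD206), Mgl2 and Clec10a (galactose-type lectins), Cd163 (the haemoglobin scavenger receptor), Folr2 (folate receptor beta) and Lyve1 (a hyaluronan receptor shared with lymphatic endothelium). Pancreatic islets are known to hold resident macrophages of a more inflammatory kind, while macrophages with CD206 and CD163 are known from the exocrine stroma.

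Values are FPKM, fragments scaled to transcript length and to the size of the library, so levels of genes of different length can be compared. Read numbers are unknown. Each value has a deposited interval whose level is not stated. A gene was counted as measured in a pair of libraries at 1 FPKM or more in either of them, and as different at 2-fold or more on the scale of log2(FPKM + 1), which understates the change of low genes. Over all measured genes, 18.5% were lower and 19.7% higher in Glut2L than in Glut2H in control mice, and 17.8% and 22.9% after STZ. Between STZ and control, 9.62% were higher and 13.8% lower in Glut2H, and 10.2% and 11.1% in Glut2L. Each list count below is to be set beside these shares.

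RNA of the Glut2 gene ran against the gate labels. Neither the labels themselves nor the part of RNA from other cells in that order was tested. Slc2a2, the Glut2 gene, was at 8.74 and 10.8 FPKM in Glut2H control and STZ and at 41.0 and 33.7 FPKM in the libraries labelled Glut2L, and 2-fold or more higher levels in Glut2L were seen for all of 10 beta cell markers in control mice and for 8 of 10 after STZ. Gm20594, a predicted gene, made up 61.0% and 68.5% of all FPKM in Glut2H control and STZ but 3.86% and 4.15% in the libraries labelled Glut2L. Macrophage RNA moved with the gates: all of 21 pan-macrophage markers were lower by 2-fold or more in both libraries labelled Glut2L. Their summed level was 2440 FPKM in Glut2H control, 99.2 in Glut2L control, 2606 in Glut2H STZ and 121 in Glut2L STZ, and none of the 21 was listed at 0 in any library. The same held for all of 9 stromal markers and for 9 of 10 blood endothelial markers in each pair, while acinar markers (7 of 7) were lower in Glut2L after STZ alone; the part of these cells in the values below was not tested. In bulk RNA, fewer macrophages and less RNA per macrophage cannot be told apart.

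The upstream sequence of Retnla is shown because the gene is known to answer STAT6 and C/EBP factors, and that of its neighbour Retnlg because the pair is alike in sequence but not in level. RefSeq promoter windows (GRCm38.p6) were found for 5 of the 8 members. Motifs were searched on both strands in the 250 bases before each RefSeq start: TTC and GAA set 4 bases apart for STAT6, TTCNNNGAA for other STAT factors, TTGCNNAA for C/EBP, GAGGAA for PU.1, TGANTCA for AP-1 and TATAAA for the TATA box. Of 32851 such windows, 5.85% hold the STAT6 letters, 7.02% those of other STAT factors, 9.56% the C/EBP letters, 23.3% the PU.1 letters, 6.75% the AP-1 letters and 12.4% the TATA box. The Retnla stretch lies on the plus strand at chr16:48842359-48842550 and that of Retnlg on the plus strand at chr16:48872358-48872607. Both are given 5′ to 3′ with motif matches in capitals.
Retnla: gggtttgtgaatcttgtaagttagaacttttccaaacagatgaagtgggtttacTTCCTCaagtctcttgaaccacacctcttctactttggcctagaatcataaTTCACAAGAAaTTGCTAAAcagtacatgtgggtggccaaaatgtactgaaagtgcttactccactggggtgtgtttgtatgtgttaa
Retnlg: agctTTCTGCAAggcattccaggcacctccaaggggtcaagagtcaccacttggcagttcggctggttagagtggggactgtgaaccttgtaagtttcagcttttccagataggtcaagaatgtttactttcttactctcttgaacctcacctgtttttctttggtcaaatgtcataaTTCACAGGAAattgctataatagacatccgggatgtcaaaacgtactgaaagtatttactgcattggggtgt
The Retnla window held a PU.1 match from -196 to -191, a STAT6 match from -145 to -136 and a C/EBP match from -134 to -127. Positions are counted from the RefSeq start at 48842609. The TATA box letters stood from -30 to -25, beyond the stretch shown, which ends before the GENCODE start at 48842551. By GENCODE those letters thus lie downstream of the start of the gene. In Retnlg the STAT6 letters stood from -72 to -63 and a C/EBP match on the other strand from -246 to -239. A local alignment of both windows covered 173 columns with 78.0% identity, and the STAT6 match fell within the shared stretch. Of the other members, Mrc1 had 3 PU.1 matches, Mgl2 had 1 PU.1 match, 1 of the 2 Folr2 windows had an AP-1 match and Cd163 had none of the 6 motifs. STAT6 letters were found in Retnla alone among the 5 members searched. A match is a string of letters and no evidence of binding.

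The coding sequences of Mgl2 and Clec10a are shown because reads from these neighbours cannot always be told apart. Over 911 aligned coding bases of GENCODE M21 they were identical at 90.2%. The stretch below surrounds their longest identical run of 183 bases, coding bases 550 to 732 of Mgl2 and 502 to 684 of Clec10a, with the bases that differ in capitals.
Mgl2: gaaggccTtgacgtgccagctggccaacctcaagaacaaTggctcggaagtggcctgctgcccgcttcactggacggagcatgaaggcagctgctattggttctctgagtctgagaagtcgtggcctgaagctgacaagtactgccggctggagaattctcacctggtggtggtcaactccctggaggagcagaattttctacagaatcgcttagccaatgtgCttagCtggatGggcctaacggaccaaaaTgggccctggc
Clec10a: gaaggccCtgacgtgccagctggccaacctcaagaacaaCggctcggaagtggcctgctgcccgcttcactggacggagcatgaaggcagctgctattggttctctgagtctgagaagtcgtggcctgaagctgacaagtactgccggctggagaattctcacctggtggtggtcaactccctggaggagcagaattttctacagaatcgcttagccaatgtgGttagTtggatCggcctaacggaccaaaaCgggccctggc
Of all words of 50 bases in the longest Mgl2 transcript, 15.3% also occur in a Clec10a transcript, and 10.6% in the other direction. For words of 100 bases the shares are 5.92% and 4.08%. The sources do not say how the counting split such reads, so the levels of both genes are uncertain. Retnla shared no word of 50 bases with Retnlg, Retnlb or Retn, although its coding sequence was identical to that of Retnlg at 85.1% of 349 aligned bases.

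Retnla (ENSMUSG00000061100, GRCm38 chromosome 16, 48842552 to 48844461, 4 exons) was by far the most abundant of the 8 in the Glut2H libraries. It stood at 173 FPKM in Glut2H control, was listed at 0 in Glut2L control, stood at 465 in Glut2H STZ and at 2.59 in Glut2L STZ. The 2 Glut2H libraries were high, and among 21226 protein-coding rows Retnla ranked 256th in the control library and 72nd after STZ. The deposited intervals of the Glut2H libraries, 59.5 to 264 and 157 to 666 FPKM, did not overlap those of the libraries labelled Glut2L, which ended at 0 and 5.04. On the log2 scale the library labelled Glut2L differed by -7.44 in control mice, the lowest value of 13259 measured protein-coding genes, and by -7.02 after STZ, the fifth lowest of 13071. After STZ that was 179-fold by FPKM.

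The STZ libraries held more Retnla in both gates. In Glut2H it was 2.70-fold higher after STZ, 1.43 on the log2 scale, which ranked 435th from the top of 12917 protein-coding genes. The deposited intervals of both libraries overlapped. The 21 pan-macrophage markers differed between the same libraries by -1.40 to 0.83 on the log2 scale with a median of 0.08, so Retnla lay above each of them. As a share of the summed pan-macrophage FPKM, Retnla was 7.08% in Glut2H control and 17.9% in Glut2H STZ, a 2.52-fold difference, against 2.14% in Glut2L STZ. It stood above 17 of the 21 markers in Glut2H control and above 20 of 21 in Glut2H STZ. In the libraries labelled Glut2L the value of 0 and that of 2.59 FPKM gave a log2 difference of 1.85, with intervals that touched at 0.

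No other resistin-like gene of the table reached 1 FPKM. Retnlb, a goblet cell protein, and Retnlg, a protein of neutrophils and bone marrow, were listed at 0 in all 4 libraries. Retn, the adipocyte hormone resistin, was listed at 0 in both Glut2H libraries and stood at 0.913 FPKM in Glut2L control and 0.743 in Glut2L STZ. Of 9 mesothelial and adipose markers, Adipoq was listed at 0 in both Glut2H libraries, and Cfd and Upk3b were at 0 in all 4. Krt19, which duct cells also make, was at 18.9 and 15.1 FPKM in Glut2H control and STZ, Msln at 0.598 and 0.746, and Wt1 at 1.02 and 0. Fabp4, which capillaries and macrophages also make, was at 61.3 and 39.5 FPKM in Glut2H control and STZ.

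**Figure D1:**
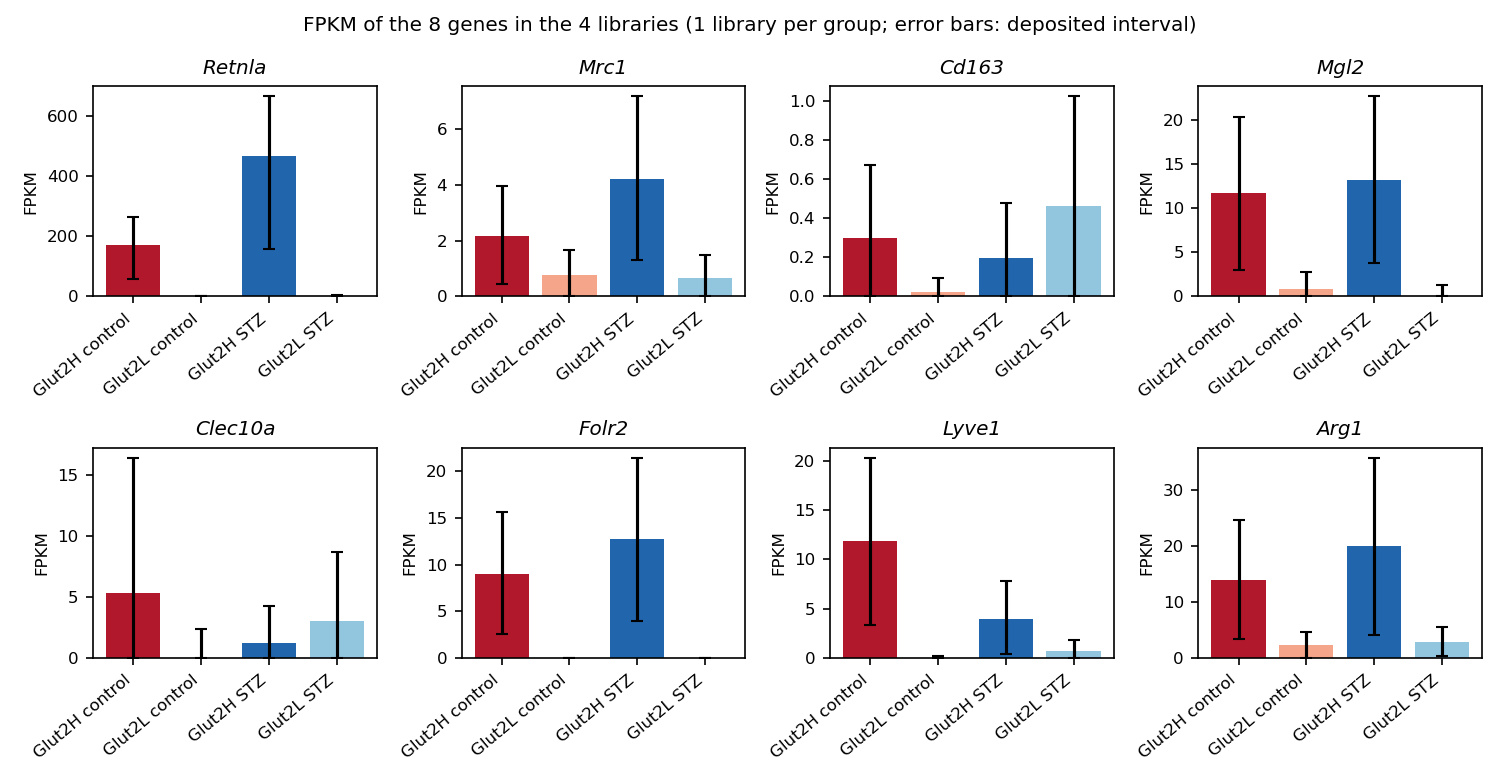
FPKM of each of the 8 genes (panels, each with its own axis from 0) in the 4 libraries, 1 bar per library, with the deposited interval as error bar. Retnla reached 173 and 465 FPKM in the Glut2H libraries, while Cd163 stayed below 1 FPKM in all 4 and Clec10a was not ordered by gate.

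Arg1 (ENSMUSG00000019987, chromosome 10, 24915208 to 24927470) was the next most abundant member in the Glut2H libraries. Its level was 13.96 FPKM in Glut2H control, 2.32 in Glut2L control, 19.95 in Glut2H STZ and 2.84 in Glut2L STZ. Both Glut2H libraries were the higher ones, by 6.02-fold in control mice and 7.03-fold after STZ, with log2 differences of -2.17 and -2.45 for Glut2L against Glut2H. The deposited intervals overlapped in both pairs. Against pan-macrophage RNA the order of the gates turned. Arg1 equalled 0.572% of the summed marker FPKM in Glut2H control and 0.766% in Glut2H STZ, but 2.34% in each library labelled Glut2L. The marker sum was far lower in Glut2L, which raises this percent for any gene there. Which cells made the Arg1 RNA was not tested. Between STZ and control Arg1 differed by 0.49 in Glut2H and 0.21 in Glut2L on the log2 scale, below 2-fold in each.

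Arginine metabolism as a list did not follow Arg1. Of 13 measured genes, 4 were lower and 2 higher by 2-fold or more in the control library labelled Glut2L (median -0.36, over all genes 0.15), and of 12 after STZ 4 were lower and 2 higher (median -0.38, over all genes 0.23). Among all genes 18.5% were lower and 19.7% higher in control mice, and 17.8% and 22.9% after STZ. Both list medians turned positive when each library was scaled to the same total FPKM. The lower genes in both pairs were Arg1, Ass1, Gatm and Srm. Ass1, which regenerates arginine from citrulline, stood at 38.97 FPKM in Glut2H control, 0.0712 in Glut2L control, 26.2 in Glut2H STZ and 4.59 in Glut2L STZ. Nos2, the inducible nitric oxide synthase that competes with arginase for arginine, was at 1.04, 0.145 and 0.187 FPKM in Glut2H control, Glut2L control and Glut2H STZ and listed at 0 in Glut2L STZ. Hepatocytes also make Arg1; of 7 hepatocyte markers Cps1 was listed at 0 in both Glut2H libraries, Alb at 0 in Glut2H control and at 0.454 FPKM in Glut2H STZ, and Serpina1a at 0 in all 4. Ttr of that list, which islet cells also make, was at 9.11, 34.8, 5.82 and 59.6 FPKM in Glut2H and Glut2L of control mice and then of STZ mice, and Fgb at 1.38 and 2.63 FPKM in the control libraries. The part of hepatocyte RNA in the Arg1 values was not tested. The most abundant genes of the list, Azin1, Odc1 and Srm, serve polyamine synthesis and its control. Azin1 was at 75.5, 66.5, 49.1 and 64.8 FPKM and Srm at 55.4, 23.2, 53.0 and 12.1 FPKM in the order just given. The higher genes were Asl and Slc7a3 in control mice, at 6.06 and 23.1 and at 1.77 and 5.71 FPKM in Glut2H and Glut2L, and Slc7a3 and Sms after STZ, at 1.63 and 6.94 and at 1.98 and 5.80 FPKM. Odc1 was at 42.5 FPKM in Glut2H control, 61.7 in Glut2L control, 33.0 in Glut2H STZ and 46.9 in Glut2L STZ.

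Mgl2 (ENSMUSG00000040950, chromosome 11, 70130329 to 70137550) encodes CD301b, a lectin for galactose and N-acetylgalactosamine on dermal dendritic cells and tissue macrophages. It stood at 11.7 FPKM in Glut2H control, 0.891 in Glut2L control, 13.2 in Glut2H STZ and 0.0752 in Glut2L STZ. The Glut2H libraries were high, close to each other (log2 difference 0.16), and apart from the other libraries in their deposited intervals. The library labelled Glut2L differed by -2.75 in control mice and -3.72 after STZ on the log2 scale. Mgl2 equalled 0.481% of the summed pan-macrophage FPKM in Glut2H control and 0.507% in Glut2H STZ. In the libraries labelled Glut2L it equalled 0.898% in control mice and 0.0619% after STZ.

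Clec10a (ENSMUSG00000000318, chromosome 11, 70156197 to 70170834), the sister lectin CD301a, did not keep an order of the gates. Its level was 5.31 FPKM in Glut2H control, 0.0331 in Glut2L control, 1.26 in Glut2H STZ and 3.06 in Glut2L STZ. It was thus lower in the control library labelled Glut2L (log2 -2.61) and higher there, below 2-fold, after STZ (0.85). That last value reached 1.60 when each library was scaled to the same total FPKM. Between STZ and control the log2 value was -1.48 in Glut2H and 1.98 in Glut2L. The deposited interval of Clec10a began at 0 in all 4 libraries and ended at 16.4, 2.37, 4.26 and 8.70 FPKM for Glut2H and Glut2L of control mice and then of STZ mice, so all of them overlapped. The summed FPKM of Mgl2 and Clec10a, which does not depend on how their shared reads were split apart from length, was 17.04 in Glut2H control, 0.924 in Glut2L control, 14.5 in Glut2H STZ and 3.14 in Glut2L STZ.

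Mrc1 (ENSMUSG00000026712, chromosome 2, 14229414 to 14332057, 29 exons), the receptor CD206 for mannose-bearing glycans, was low in all libraries. It stood at 2.17 FPKM in Glut2H control, 0.757 in Glut2L control, 4.22 in Glut2H STZ and 0.655 in Glut2L STZ. Each of the 21 pan-macrophage markers stood above it in both Glut2H libraries. In control mice the library labelled Glut2L differed by -0.85 on the log2 scale, short of 2-fold, and after STZ by -1.66, which became -0.98 with each library at the same total FPKM. In Glut2H Mrc1 was 1.94-fold higher in the STZ library by FPKM (log2 0.72). The deposited intervals overlapped in every pair.

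The 3 most abundant genes of the lectin list stood well above these members in the Glut2H libraries. Clec7a, the beta-glucan receptor Dectin-1, stood at 108 FPKM in Glut2H control, 0.504 in Glut2L control, 128 in Glut2H STZ and 3.90 in Glut2L STZ. Clec4d was at 57.2, 0.981, 93.5 and 3.51 FPKM and Clec4n, which encodes Dectin-2, at 65.1, 0.843, 84.0 and 4.496 FPKM in that same order of libraries. These are pattern receptors for fungal and mycobacterial sugars. Of the 28 lectin genes listed, the 3 members included, 12 of 19 measured were lower and 2 higher by 2-fold or more in the control library labelled Glut2L (median -2.30), and 13 of 15 were lower and 1 higher after STZ (median -1.66). The SIGN receptor genes, lectins of some tissue macrophages and dendritic cells, differed among themselves: Cd209d, Cd209e and Cd209f were listed at 0 in all 4 libraries, Cd209b stood at 2.20 FPKM in Glut2H control, 0.964 in Glut2H STZ and 0 in both libraries labelled Glut2L, and Cd209a, which monocyte-derived dendritic cells carry with Mgl2, was listed at 0 in all but Glut2L control, where it stood at 1.02 FPKM. Cd209c, at 6.74 FPKM in Glut2H control, 7.02 in Glut2L control, 2.80 in Glut2H STZ and 7.31 in Glut2L STZ, was the gene that was higher in the library labelled Glut2L after STZ.

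Cd163 (ENSMUSG00000008845, chromosome 6, 124304651 to 124330527), which clears haemoglobin bound to haptoglobin, was close to absent. It stood at 0.297 FPKM in Glut2H control, 0.0208 in Glut2L control, 0.194 in Glut2H STZ and 0.46 in Glut2L STZ, and its interval began at 0 in all 4. No library was set apart. It reached 1 FPKM in none of them and was therefore measured in no pair. The label of alternatively activated macrophages thus holds poorly for the set as a whole: Cd163 was near 0, Mrc1 stood below every pan-macrophage marker in Glut2H, and Retnla alone was at the level of the abundant markers. Vsig4, another receptor of resident macrophages, was listed at 0 in all 4 libraries, and Timd4 stood at 1.21 FPKM in Glut2H control and 0.713 in Glut2H STZ.

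Genes that handle iron and haem after uptake were, by contrast, abundant. Hmox1, the haem oxygenase, stood at 787 FPKM in Glut2H control, 246 in Glut2L control, 942 in Glut2H STZ and 352 in Glut2L STZ. The ferritin heavy chain gene Fth1 was at 2967 and 3213 FPKM in Glut2H control and STZ and at 353 and 333 in Glut2L. The ferritin light chain gene Ftl1 was at 2561 and 3146 in Glut2H and at 1466 and 1252 in Glut2L, in the order control and STZ. Of this list, 8 of 14 measured genes were lower and 1 higher by 2-fold or more in the control library labelled Glut2L (median -1.46), and 10 of 12 lower and 0 higher after STZ (median -1.44). The transferrin gene Trf was at 27.3 FPKM in Glut2H control and 60.0 in Glut2H STZ, the 1 gene of 13 measured that was higher there by 2-fold or more. Lower there were Hamp, the iron hormone hepcidin, at 25.4 and 3.63 FPKM, and Hp, which encodes haptoglobin, at 1.36 and 0.

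Folr2 (ENSMUSG00000032725, chromosome 7, 101839990 to 101845331), folate receptor beta, was seen in the Glut2H libraries alone. It stood at 9.03 FPKM in Glut2H control and 12.7 in Glut2H STZ and was listed at 0 in both libraries labelled Glut2L. Its deposited intervals in Glut2H were 2.54 to 15.6 and 3.94 to 21.5 FPKM, apart from those of Glut2L. The log2 differences of Glut2L against Glut2H were -3.33 in control mice and -3.78 after STZ, and that of STZ against control in Glut2H was 0.45. In GENCODE M21, 975 exonic bases of Folr2 are shared with the antisense gene Gm10602, although the loci given for both genes in the deposited table do not overlap. Gm10602 was at 5.97 FPKM in Glut2H control, 10.6 in Glut2L control, 33.2 in Glut2H STZ and 6.69 in Glut2L STZ, an order unlike that of Folr2.

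The epithelial folate receptor gene Folr1 had another order. It stood at 2.07 FPKM in Glut2H control, 5.90 in Glut2L control, 7.14 in Glut2H STZ and 9.74 in Glut2L STZ, so it was the higher in Glut2L in each pair, at least 2-fold in the control pair. The reduced folate carrier gene Slc19a1 had the gate order of Folr2, at 19.6 and 12.1 FPKM in Glut2H control and STZ and 4.15 and 2.09 in Glut2L control and STZ. Fpgs, which traps folate in cells by adding glutamates, was at 9.41 FPKM in Glut2H control, 20.5 in Glut2L control, 16.3 in Glut2H STZ and 3.04 in Glut2L STZ. Over the folate list, 3 of 8 measured genes were lower and 2 higher by 2-fold or more in the control library labelled Glut2L (median 0.27), and 3 of 8 lower and 0 higher after STZ (median -0.59, or 0.11 with each library at the same total FPKM). The shares of all genes were 18.5% lower and 19.7% higher in control mice, and 17.8% and 22.9% after STZ. With 8 genes, counts this close to those shares say little about the list.

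Lyve1 (ENSMUSG00000030787, chromosome 7, 110850607 to 110862953), a hyaluronan receptor of lymphatic endothelium and of perivascular macrophages, was, with Clec10a, the member that was lower in Glut2H STZ than in Glut2H control by 2-fold or more. It stood at 11.8 FPKM in Glut2H control, 0.0301 in Glut2L control, 3.92 in Glut2H STZ and 0.74 in Glut2L STZ. Glut2H control was the high library, with an interval of 3.31 to 20.3 FPKM that overlapped that of Glut2H STZ, 0.42 to 7.78. The log2 differences of Glut2L against Glut2H were -3.64 in control mice and -1.50 after STZ, the last becoming -0.81 with each library at the same total FPKM. Against pan-macrophage RNA, which was lower in Glut2L and so raises any gene there, the STZ difference turned to 2.02. In Glut2H the STZ library differed by -1.38 on the log2 scale, or 3.02-fold by FPKM.

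Endothelial markers were also read, since Lyve1 is one of them. Of 7 lymphatic markers, Lyve1 included, 4 of 6 measured were lower and 0 higher by 2-fold or more in the control library labelled Glut2L, and 5 of 6 lower and 1 higher after STZ. Their summed FPKM was 36.5 in Glut2H control, 10.8 in Glut2L control, 22.1 in Glut2H STZ and 10.7 in Glut2L STZ. Pdpn was at 11.1 and 7.10 FPKM, Flt4 at 3.14 and 1.08 and Ccl21a at 4.17 and 3.14 in Glut2H control and STZ, and Mmrn1 was listed at 0 in Glut2L control and Glut2H STZ. In Glut2H, STZ against control, 1 of 6 lymphatic markers was lower by 2-fold or more, Lyve1 itself, and 1 was higher, Reln. Prox1, the defining lymphatic factor that islet cells also make, was higher in the libraries labelled Glut2L, at 8.51 and 8.57 FPKM, than in Glut2H control and STZ, at 5.08 and 3.14. Of 10 blood endothelial markers, 3 were at least 2-fold lower and 0 higher after STZ in Glut2H (median -0.63), with Cdh5 at 24.0 and 10.1 FPKM in control and STZ and sums of 292 and 254. In this Glut2H pair 13.8% of all genes were lower and 9.62% higher. The part of endothelial RNA in the Lyve1 values was not tested.

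The other genes of hyaluronan handling gave a mixed picture. Cd44, the main hyaluronan receptor of leukocytes, stood at 46.5 FPKM in Glut2H control, 5.55 in Glut2L control, 45.4 in Glut2H STZ and 5.54 in Glut2L STZ. Stab1, a scavenger receptor of macrophages and sinusoidal endothelium, was at 91.2, 38.7, 125 and 16.1 FPKM in the same order. The hyaluronidase gene Hyal2 was at 7.02, 4.95, 5.23 and 3.69 FPKM. Both kept the gate order of Lyve1, and neither was lower by 2-fold in Glut2H after STZ. Of 11 measured genes, 5 were lower and 0 higher by 2-fold or more in the control library labelled Glut2L (median -0.68), and of 9 after STZ, 5 were lower and 1 higher (median -1.21, or 0.21 with each library at the same total FPKM). Among all genes 18.5% were lower and 19.7% higher in control mice, and 17.8% and 22.9% after STZ.

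Counted together, 6 of the 7 measured members were lower by 2-fold or more in the control library labelled Glut2L, where 18.5% of all measured genes were lower and 19.7% higher. They were Retnla, Mgl2, Clec10a, Folr2, Lyve1 and Arg1, and their median with Mrc1 was -2.75, against 0.15 for all genes. After STZ 6 of 7 were lower again, against 17.8% of all genes lower and 22.9% higher, but Mrc1 had taken the place of Clec10a. The median was -2.45, against 0.23 for all genes. The members that counted as measured did so mostly through their Glut2H level, and the set was chosen on this contrast, so the counts are given as a description. If the intervals must also lie apart, 4 were left in control mice (Retnla, Mgl2, Folr2 and Lyve1) and 3 after STZ (Retnla, Mgl2 and Folr2). By the same rule, 681 of 16234 measured genes were lower and 83 higher in control mice. After STZ 658 of 15839 were lower and 154 higher.

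**Figure D2:**
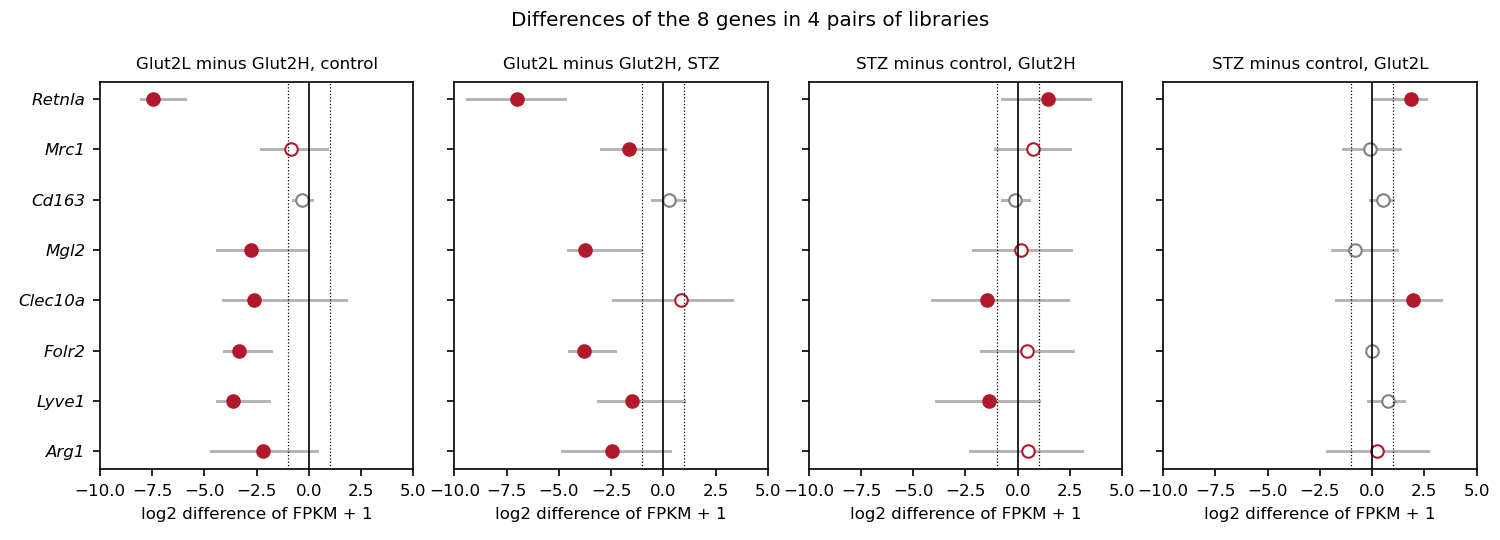
Log2 differences of FPKM + 1 for the 8 genes in the 4 pairs of libraries (x axis; dotted lines at 2-fold), filled where a measured gene differed at least 2-fold, open below it and grey-edged where neither library reached 1 FPKM. Grey bars span the differences between the far ends of the deposited intervals, and in the gate pairs Retnla lies at -7.44 and -7.02, to the left of all other members.

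Few members reached 2-fold between STZ and control in Glut2H. Of 7 measured, Retnla was at least 2-fold higher, against 9.62% of all genes higher, and Clec10a and Lyve1 were at least 2-fold lower, against 13.8% of all genes lower. With 7 genes, counts this small cannot be set apart from those shares. Mrc1, Mgl2, Folr2 and Arg1 differed by 0.16 to 0.72 on the log2 scale, and Mgl2 turned to -0.05 with each library at the same total FPKM. The median of the 7 was 0.45, against -0.07 for all genes. All 7 pairs of deposited intervals overlapped. The pan-macrophage list as a whole differed little between these libraries: 0 of 21 were at least 2-fold higher and 1, the Fc receptor gene Fcgr1 at 45.0 and 16.4 FPKM, was lower, and their sum was 1.07-fold that of the control library.

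In the libraries labelled Glut2L, 3 members were measured. Retnla and Clec10a were at least 2-fold higher after STZ, against 10.2% of all genes higher and 11.1% lower, and Arg1 was not. Mrc1 (0.757 and 0.655 FPKM in control and STZ), Cd163, Mgl2 and Lyve1 stayed below 1 FPKM in both, and Folr2 was listed at 0 in both. These values lie near the floor of the data.

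**Figure D3:**
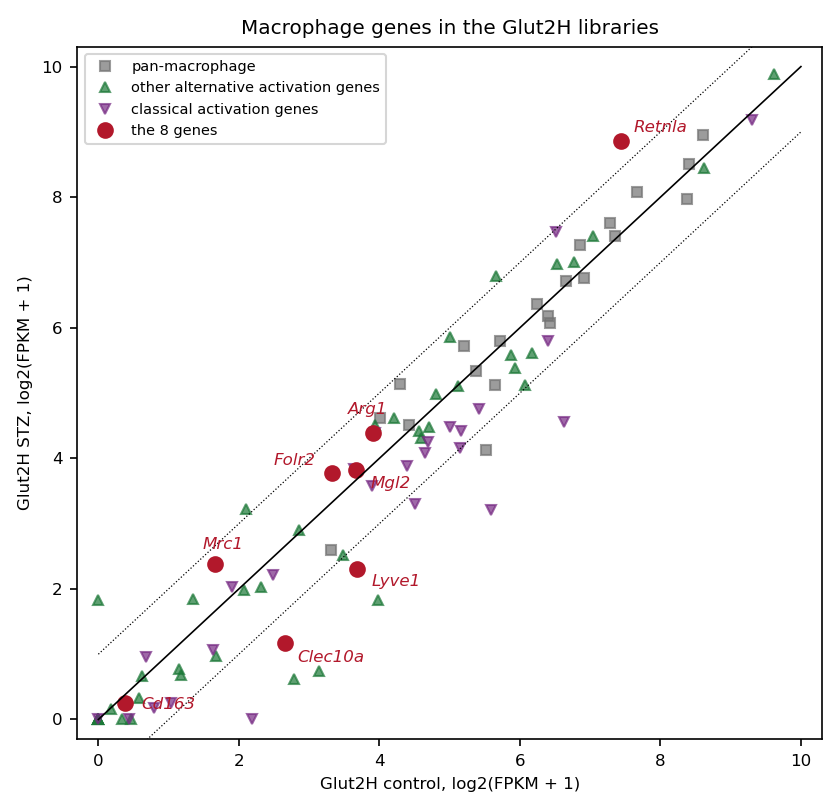
Levels as log2(FPKM + 1) in the Glut2H control library (x axis) and the Glut2H STZ library (y axis) for the 8 genes, the 21 pan-macrophage markers and the lists of other alternative and of classical activation genes. The solid line marks equal levels and the dotted lines 2-fold; Retnla (173 and 465 FPKM) lies above the upper line, and Lyve1 and Clec10a lie below the lower.

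The level of each member against pan-macrophage RNA set the gates in another order. Dividing by the summed FPKM of the 21 pan-macrophage markers, which was 24.6-fold lower in the control library labelled Glut2L and 21.5-fold lower after STZ, left 2 members lower there by 2-fold or more in each pair, of 5 and 6 measured members that were above 0 in both libraries. Members listed at 0 in Glut2L were outside these counts: Retnla and Folr2 in control mice and Folr2 after STZ, which also had the lower share there. The members counted as lower were Clec10a and Lyve1 in control mice and Retnla and Mgl2 after STZ. Mrc1 (log2 of the ratio of shares 3.10 and 1.74) and Arg1 (2.03 and 1.61) were then higher in the library labelled Glut2L in both pairs. These shares rest on member levels of at most 3.06 FPKM in the libraries labelled Glut2L. The lower marker sum there raises the share of any gene alike, and no count over all genes was made for this division. The counts and the order of Mrc1 and Arg1 therefore show nothing particular to the members. Which cells made the member RNA was not tested.

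**Figure D4:**
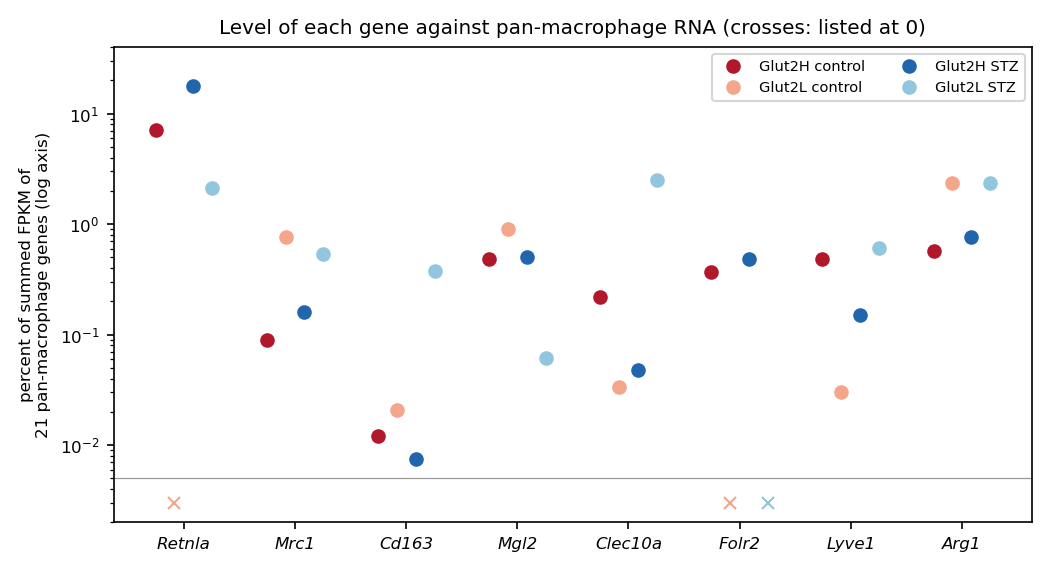
FPKM of each gene as a percent of the summed FPKM of 21 pan-macrophage markers in the same library (log axis), 1 point per library, with crosses for genes listed at 0. Retnla goes from 7.08% in Glut2H control to 17.9% in Glut2H STZ. Arg1 and Mrc1 lie higher in the libraries labelled Glut2L, where the marker sum was lower, than in Glut2H.

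Upstream of the members, the cytokines that drive alternative activation were barely seen. Il4 stood at 1.69 FPKM in Glut2H control and 0.462 in Glut2L control and was listed at 0 in both STZ libraries, and Il13 was listed at 0 in all but Glut2L STZ, where it stood at 0.165. Il33, an alarmin of stromal cells that induces these cytokines, was at 7.81 FPKM in Glut2H control, 0.0579 in Glut2L control, 12.0 in Glut2H STZ and 0.0374 in Glut2L STZ. The receptor gene Il4ra was at 14.2, 2.77, 13.4 and 1.87 FPKM in that order. Ligand genes were thus low and the receptor gene was present, mainly in Glut2H.

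The signalling genes below the receptor were spread over both gates. Stat6 stood at 26.6 FPKM in Glut2H control, 18.3 in Glut2L control, 19.997 in Glut2H STZ and 9.42 in Glut2L STZ. Stat3, the most abundant gene of the list, was at 144, 197, 63.2 and 122 FPKM in that order. Csf1, the growth factor of macrophages, was at 125 FPKM in Glut2H control and 94.9 in Glut2H STZ and at 9.39 and 7.32 in Glut2L. Cebpb was at 31.1, 42.7, 43.5 and 39.4 FPKM in Glut2H and Glut2L of control mice and then of STZ mice.

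Of the 27 upstream genes, 12 of 26 measured were lower and 1 higher by 2-fold or more in the control library labelled Glut2L (median -0.92), and 11 of 23 lower and 2 higher after STZ (median -0.998). The higher genes were Il34 in control mice, at 2.77 and 11.2 FPKM in Glut2H and Glut2L, and Klf4 and Cish after STZ, at 6.17 and 18.3 and at 5.93 and 36.6 FPKM. Between STZ and control in Glut2H, 0 of 26 were at least 2-fold higher and 6 were lower: Il4, Il10, Il1rl1, Stat3, Socs1 and Cish. Il1rl1, the receptor of interleukin 33, was at 27.4 and 8.91 FPKM, Socs1 at 15.9 and 5.30 and Il10 at 3.33 and 0.56 in Glut2H control and STZ. Of 7 measured lymphoid markers, which include Il1rl1, 5 were also lower by 2-fold or more in that library. Their part in these values was not tested. Both counts stand beside 13.8% of all genes lower and 9.62% higher in this pair.

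Further genes tied to alternative activation were present in Glut2H, but not evenly. Of 42 symbols listed, 31 were measured in control mice, of which 23 were lower and 3 higher by 2-fold or more in the control library labelled Glut2L (median -2.85). After STZ 23 of 26 were lower and 1 higher (median -2.85). Il1rn, the interleukin 1 receptor antagonist, stood at 392 FPKM in Glut2H control, 5.62 in Glut2L control, 348 in Glut2H STZ and 11.6 in Glut2L STZ. Genes of the list that were higher in Glut2L were Cdh1, the epithelial cadherin, at 25.1, 54.7, 21.2 and 56.8 FPKM, and, in the control pair, Matk, at 3.31 and 8.65, and Cd209a. Cd36, a lipid scavenger receptor, was at 130, 2.33, 168 and 3.90 FPKM in that order. The chitinase-like genes Chil3 and Chil4, named Chi3l3 and Chi3l4 in the table, are the usual companions of Retnla: Chil3 stood at 0.537 FPKM in Glut2H control and 0.584 in Glut2H STZ and was listed at 0 in both libraries labelled Glut2L, and Chil4 was listed at 0 in all 4. Ccl17 was likewise listed at 0 throughout. These 3 secreted markers were thus at or near 0 in the libraries with high Retnla. Several other secreted genes of the list were not. In Glut2H control and STZ, Ccl7 stood at 66.2 and 33.8 FPKM, Igf1 at 57.6 and 46.7 and Ccl8 at 33.9 and 33.7. Ear2 was at 31.0 and 56.9 FPKM there and Ccl22 at 6.25 and 6.48.

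In Glut2H after STZ, 3 of 31 of these genes were at least 2-fold higher, Ccl24, Matk and Pf4, and 3 lower, Cbr2, Cd5l and Marco (median -0.14). Over all genes 9.62% were higher and 13.8% lower in this pair, so both counts lie near or below those shares. Pf4, the chemokine of platelets and tissue macrophages, stood at 49.7 and 110 FPKM in Glut2H control and STZ. Marco, a scavenger receptor, was at 14.7 and 2.57 FPKM, Cd5l at 5.90 and 0.542 and Cbr2 at 7.84 and 0.679. The chemokine gene Ccl24 was listed at 0 in Glut2H control and stood at 2.56 FPKM in Glut2H STZ.

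Classical activation genes were in the Glut2H libraries as well. Of 21 measured in control mice, 18 were lower and 2 higher by 2-fold or more in the control library labelled Glut2L (median -3.39), and of 19 after STZ 16 were lower and 1 higher (median -2.72). Ccl5 stood at 629 FPKM in Glut2H control, 29.6 in Glut2L control, 582.5 in Glut2H STZ and 16.3 in Glut2L STZ, and Irf5, a transcription factor of inflammatory macrophages, at 90.2, 1.64, 176 and 1.01 FPKM. Il1b was at 14.2 and 19.8 and Tnf at 11.5 and 13.2 FPKM in Glut2H control and STZ. Ccr7 was at 4.62 and 11.1 FPKM in Glut2H and Glut2L of control mice. Socs3, which beta cells also induce, went the other way, at 47.3 FPKM in Glut2H control, 208 in Glut2L control, 8.23 in Glut2H STZ and 100 in Glut2L STZ. In the Glut2H pair, STZ against control, 0 of 21 were at least 2-fold higher and 5 lower (median -0.56). All genes gave 9.62% higher and 13.8% lower in this pair. Il6 was at 97.9 and 22.5 FPKM in Glut2H control and STZ.

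**Figure D5:**
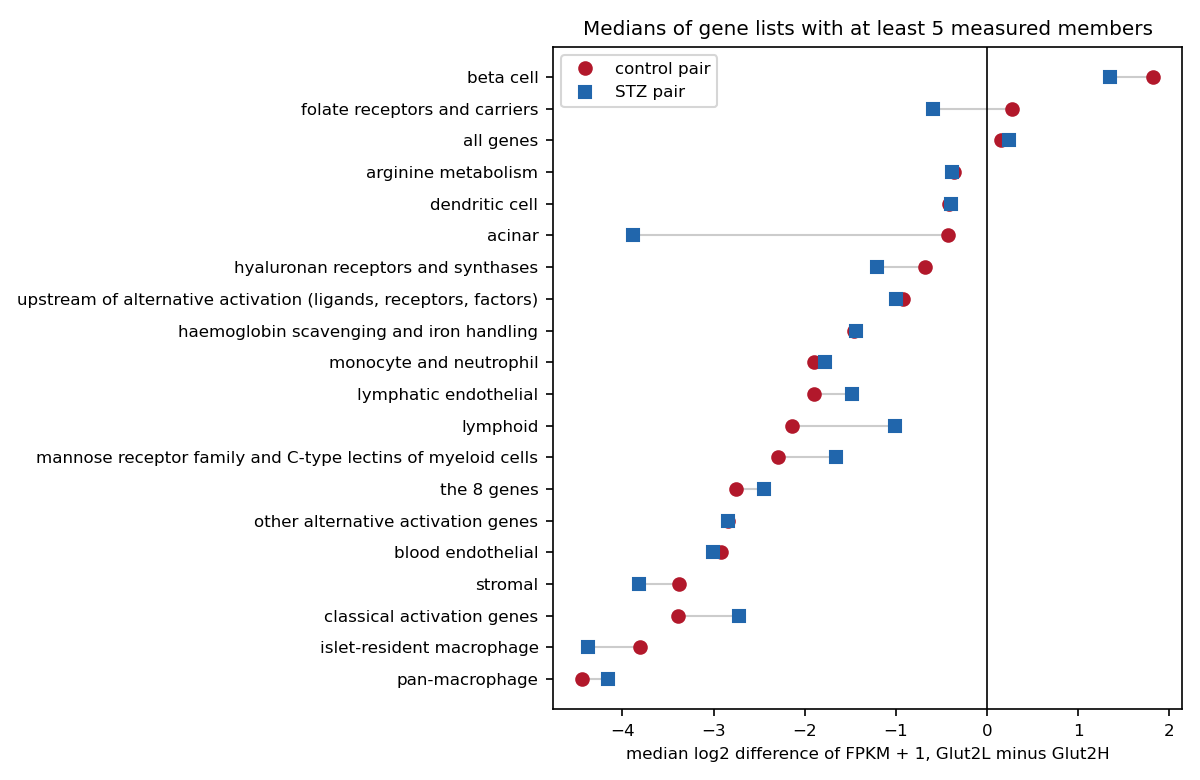
Median log2 difference of Glut2L minus Glut2H (x axis) in the control pair (circles) and the STZ pair (squares) for the 8 genes, all genes and each list with at least 5 measured genes in both pairs. The 8 genes, at -2.75 and -2.45, lie between the lectin list and the list of other alternative activation genes, and the pan-macrophage list lies lowest in the control pair.

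Markers of other cells and of kinds of macrophage that can carry members were also read. Of 12 dendritic cell markers, Cd209a was listed at 0 in both Glut2H libraries, Batf3 and Clec9a stood below 0.5 FPKM there, and Flt3 was at 1.43 FPKM in Glut2H control and 0.237 in Glut2H STZ. Others of that list were higher: in Glut2H control and STZ, Cd24a stood at 18.4 and 20.9 FPKM, Irf8 at 18.1 and 19.97, Ccr7 at 4.62 and 3.65 and Zbtb46 at 3.77 and 2.85. The summed FPKM of that list was 52.6, 37.2, 51.4 and 37.7 in Glut2H and Glut2L of control mice and then of STZ mice. Of 12 markers of eosinophils, basophils and mast cells, 7 were listed at 0 in all 4 libraries, and the list summed to 3.99 FPKM in Glut2H control and 2.35 in Glut2H STZ. Among monocyte and neutrophil markers S100a8, S100a9 and Retnlg were listed at 0 throughout, Ccr2 stood at 0.538 and 0.302 FPKM in Glut2H control and STZ, and Ms4a4c was at 117 and 175. Of 6 measured markers of that list, 3 were lower by 2-fold or more and 0 higher in Glut2H STZ than in Glut2H control, as Lyve1 and Clec10a were: Plac8 at 26.4 and 1.93 FPKM, Ly6c1 at 6.60 and 2.42 and Ly6c2 at 1.44 and 0 in control and STZ. For comparison, 13.8% of all genes were lower and 9.62% higher in this pair. The part of these cells in the Lyve1 and Clec10a values was not tested. Islet-resident macrophage markers ranged widely in Glut2H. In control and STZ, Apoe was at 5074 and 7834, Cd74 at 1027 and 1305 and Itgax at 17.8 and 19.1 FPKM. At the low end, H2-Eb1 was at 4.53 and 6.96 FPKM and Cx3cr1 at 2.06 and 1.79. Of 6 measured peritoneal macrophage markers, 3 were lower and 2 higher by 2-fold or more in Glut2L control. The shares of all genes were 18.5% and 19.7%. Of the 9 islet-resident genes, 9 were lower by 2-fold or more in Glut2L in each pair.

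The genes nearest to Retnla in pattern were sought among 10127 protein-coding genes with at least 5 FPKM in some library. Likeness was the distance between the values of log2(FPKM + 1) over the 4 libraries, each gene centred on its own mean. The nearest were Pf4 (distance 1.74), Cd52 (1.91), C1qc (2.08), H2-Ab1 (2.14) and 5430435G22Rik (2.16). Cd52, a surface protein of leukocytes, stood at 505, 5.11, 487 and 14.5 FPKM in Glut2H and Glut2L of control mice and then of STZ mice, and C1qc, a subunit of complement C1q, at 115, 1.42, 154 and 2.86. Among the members, Folr2 was the nearest to Retnla (distance 3.96, rank 170), then Mgl2 (4.504, rank 306), Arg1 (5.10, rank 540), Lyve1 (5.12, rank 553) and Clec10a (6.67, rank 1707). Mrc1 and Cd163 did not reach 5 FPKM in any library and were not ranked. The same search for Mrc1 gave Tgfbr1 (distance 0.13), Tctex1d2 (0.17), Smurf2 (0.19), Myadm (0.19) and Hilpda (0.19). Tgfbr1, a receptor of transforming growth factor beta, stood at 24.1, 11.6, 37.3 and 12.2 FPKM in the same order. Adding 1 to FPKM narrows the differences of Mrc1, which was at most 4.22 FPKM, more than those of these genes. By FPKM alone, Mrc1 was 2.87-fold higher in Glut2H than in Glut2L in control mice and 6.44-fold after STZ. The points are 4 libraries that share their scaling across genes, so the distances describe these values alone.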

How the data were processed

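Total RNA of 4 sorted cell populations was made into stranded libraries with Ribo-Zero Gold and sequenced, 1 library each, per the labels' protocols. TopHat2, SAMtools and Cuffdiff on GRCm38 (mm10) are named in the submitters' processing notes; the sources used here give no version, annotation or normalization setting. The authors deposited FPKM with an interval and a status per gene, per the file headers. Reads per library are unknown. FPKM of short transcripts such as Retnla depend on the length correction used.

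The 156680 values of the separate sample tables equalled those of the joint table (0 differed). Ensembl IDs matched GENCODE M21 for 37607 of 39170 rows. Symbols not in the table were looked up by Ensembl ID, which found all listed symbols but Scart2. Log2 of FPKM plus 1 was compared between 2 libraries at a time (Python 3.11.15, pandas 2.3.3, numpy 2.4.6), for genes with status OK and at least 1 FPKM in either library; 2-fold or more was counted. No test was made, each group being 1 library. The counting was tested on simulated data.

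The members, the 9 context lists and 14 marker lists were chosen with earlier results of these data known. Genes were named by rule: all members, the 3 most abundant genes of each context list, those of its genes with at least 5 FPKM in some library that differed 2-fold against its median in a gate pair, and the 5 genes nearest to Retnla and to Mrc1 in pattern; marker lists are given by their sums, counts and some of their genes, and other genes were named after their values were seen. The rule also asked for protein sequences, which were not used here. Alternatives were other pseudocounts, filters and scalings, division by pan-macrophage RNA, the deposited intervals and the sample tables.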

Additional observations from a re-analysis of the deposited data

Results flagged for a closer look

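Clec10a differed in direction between the gates and between the treatments. The log2 difference of STZ and control was -1.48 in Glut2H and 1.98 in Glut2L, so these differed by 3.46, and the log2 difference of Glut2L and Glut2H was -2.61 in control mice and 0.85 after STZ, which is the same 3.46 seen across the other margin. The difference was not tested, since each value is from 1 library. All 4 deposited intervals of Clec10a began at 0 and overlapped, and the gene shares 10.6% of its 50-base words with Mgl2.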

How the results depend on the processing

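No replicate block was fitted, since the labels give no replicate numbers, and a fit of gate and treatment over the 4 libraries was not run. Of 60 counts of members recomputed under 10 alternatives, 49 stayed within 1.5 times the value reported. The sample tables, which held the same values, and the setting without a filter could not change any count or log2 value. Without a filter, 2-fold on FPKM + 1 still needs at least 1 FPKM. The tallies of values that stayed, here and below, include both settings. With a pseudocount of 5, 0 members were at least 2-fold lower after STZ in Glut2H (reported 2) and 0 higher in Glut2L (reported 2). With a filter of 5 FPKM no member was measured in the Glut2L pair, so 0 were higher, and with an equal sum over all rows 1 was lower there (reported 0). Over the pan-macrophage sum, 2 members were lower in the library labelled Glut2L in each gate pair (reported 6 and 6). This is partly by construction, since the division raises every gene there. Members listed at 0 in a library (Retnla and Folr2 in control mice, Folr2 after STZ) have no ratio and were left out. In Glut2L 1 member was higher after STZ, where Retnla has no ratio. No count over all genes was made for this division. Where intervals had to lie apart, 3 members were lower in Glut2L after STZ (reported 6), and the counts between STZ and control were 0 higher and 0 lower in Glut2H and 0 higher in Glut2L. Among all measured genes, 658 of 15839 were then lower in Glut2L after STZ. Between STZ and control, 59 of 15558 were higher and 102 lower in Glut2H, and 50 of 15602 were higher in Glut2L. Log2 values turned over the pan-macrophage sum for Mgl2 in control mice (0.90), Mrc1 after STZ (1.74), Lyve1 after STZ (2.02) and Arg1 (2.03 in control mice and 1.61 after STZ), because that sum was 24.6-fold and 21.5-fold lower in the libraries labelled Glut2L. Of the members' log2 values, 183 stayed within the span that the deposited intervals allow, 16 moved and 5 turned; of the list counts, 389 stayed and 97 moved. No other log2 value of a measured member that had reached 2-fold changed sign under the alternatives. An equal sum over all rows moved the median of all genes in the gate pairs from 0.15 to 0.87 and from 0.23 to 1.18, and the higher share of all calls from 51.6% to 78.6% and from 56.4% to 85.6%; setting that median to 0 gave 43.0% and 43.1%. Between STZ and control in Glut2H the pan-macrophage median turned from 0.08 to -0.14 with an equal sum. Unknown read numbers limit what values below 1 FPKM can show.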
